A study of Mus musculus with 9 samples.

Results

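The SOX genes code for transcription factors that bind DNA through an HMG box, and 8 of them were taken by gene symbol from the deposited count table of 50764 genes: Sox2, Sox4, Sox5, Sox6, Sox8, Sox9, Sox11 and Sox12. Each symbol matched 1 row, and all 8 had enough counts to be tested. Rows were taken by symbol with no cut on a measured value, but the members were chosen with earlier results of these data known. Wild-type adult male mice supplied the cells, which were collected as retinal ganglion cells (the output neurons of the eye) 14 days after a crush of the optic nerve. The groups were Olig2 (an AAV2 vector, 1.5 µL into the vitreous, coding for Olig2), Olig3 (the same with Olig3) and GFP (the same vector type coding for green fluorescent protein), with 3 libraries in each; the series title names other Olig numbers, and the sample labels were followed. Every eye had thus received both a virus and a crush, and neither an uninjected nor an uncrushed group is part of the comparisons. The sample labels give 14 days for both the injection and the crush. Cells were enriched on beads against CD90.2 (Thy1) and 10 to 20 GFP-positive cells per library were picked by hand, a range that spans the differing numbers stated. Both delivered factors belong to the basic helix-loop-helix class and pattern neural progenitors, and Olig2 also specifies oligodendrocytes.

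SOX factors work in families that share domains outside the HMG box. Sox2, of the SOXB1 family, keeps neural progenitors and is retained in the retina by Müller glia and by cholinergic amacrine cells. Sox8 and Sox9, of the SOXE family, act in glia, and Sox9 marks Müller glia and astrocytes. Sox4, Sox11 and Sox12 form the SOXC family, which drives neuronal differentiation. Sox4 and Sox11 are needed for ganglion cells to form, and forced expression of Sox11 in the adult mouse makes some injured ganglion cells regrow axons while others die. Sox5 and Sox6, of the SOXD family, lack a transactivation domain of their own and act with partners, for example with Sox9 in cartilage.

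Total counts per library ran from 5355691 to 6979851, and a library without a count of a gene allows a level of up to 3 counts, or 0.379 to 0.747 CPM. Levels are TMM-scaled CPM (counts scaled to a common library size), and amplified reads without molecular identifiers make such limits cover counting error only. The labels leave unstated whether replicates are separate animals, and every p-value therefore refers to variation among libraries that could be technical. Olig3 libraries 1 and 3 stood apart, with 16188 and 14434 genes detected against 18184 to 21338 in the other 7, and in them 18.5% and 20.8% of tested genes had 0 or 1 count against 1.44 to 6.63% elsewhere. The delivered factors were read mainly in their own groups: Olig2 had 114, 97 and 21 counts in the Olig2 libraries and 0 in each GFP library, and Olig3 had 172, 113 and 597 counts in the Olig3 libraries and 13, 0 and 40 in the GFP libraries. Transcripts typical of retinal cells other than ganglion cells were counted in every library. The 12 rod markers summed to 71333 to 172950 CPM in the Olig2 group, 50569 to 206640 in the Olig3 group and 40186 to 60204 in the GFP group, while the 14 ganglion cell markers summed to 285 to 613, 175 to 483 and 861 to 1913 CPM. By edgeR 0 of 12 rod markers passed, and 11 with Olig2 and 10 with Olig3 were higher than in GFP at an unadjusted p below 0.05. Over all tested genes 2.61% and 5.76% were higher at that level. Lens markers, 7 of 8 listed being in the table, summed to 2.70 to 6.25 CPM with Olig2, 0.438 to 452 with Olig3 and 74.6 to 3302 with GFP, with 0 called by edgeR and 4 and 1 of 5 tested lower at an unadjusted p below 0.05. Over all tested genes 2.08% and 6.37% were lower at that level. Sox2 is also a gene of lens epithelium, and the part of lens RNA in its level was not tested. In picked pools, fewer cells of a type and less RNA per cell cannot be told apart.

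Sox9, Sox2 and Sox11 lay lower in the Olig2 libraries than in every GFP library, and Sox9, Sox2 and Sox12 did so in the Olig3 libraries. Of all tested genes, 8.35% lay wholly below GFP in this way with Olig2 and 10% with Olig3. Sox9 was the steadiest, at 0.385 times the GFP mean with Olig2 and 0.381 times with Olig3. No SOX gene passed the test over all genes, which for both contrasts used edgeR's quasi-likelihood test with Benjamini-Hochberg adjustment and a threshold of 0.05. Sox6 lay near the GFP level with either factor. Sox4, the SOXC relative of Sox11, averaged more with either factor than with GFP, with overlapping libraries.

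The regulatory windows of Sox11, Sox2 and Sox12 are printed because the libraries of at least 1 factor group lay wholly below GFP for these genes and because Olig factors bind E-boxes. RefSeq windows (GRCm38.p6, 250 bases before to 50 after the RefSeq start, on the gene's own strand, 5′ to 3′) matched 7 of the 8 genes, all but Sox9. The RefSeq start differs from that of the GENCODE M21 coordinates given with each gene: it lies 144 bases upstream for Sox11 and 410 bases upstream for Sox2, whose windows thus end before the GENCODE start, and at 152398046 against 152398063 for Sox12. Capitals mark every match to the E-box CANNTG, whose pattern reads the same on both strands.
Sox11, chr12:27342669-27342968, minus strand: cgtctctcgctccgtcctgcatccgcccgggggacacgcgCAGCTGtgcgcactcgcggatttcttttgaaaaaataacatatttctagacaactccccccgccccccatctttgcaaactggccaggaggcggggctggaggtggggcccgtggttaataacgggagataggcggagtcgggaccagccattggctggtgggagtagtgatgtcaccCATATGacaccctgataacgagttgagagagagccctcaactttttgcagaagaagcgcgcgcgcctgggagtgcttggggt
Sox2, chr3:34649745-34650044, plus strand: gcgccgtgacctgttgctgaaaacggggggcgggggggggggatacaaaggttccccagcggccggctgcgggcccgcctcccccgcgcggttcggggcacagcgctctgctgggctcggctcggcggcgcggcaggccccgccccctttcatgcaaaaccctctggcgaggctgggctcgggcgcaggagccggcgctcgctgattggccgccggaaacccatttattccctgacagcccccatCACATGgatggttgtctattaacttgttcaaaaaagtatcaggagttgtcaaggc
Sox12, chr2:152397997-152398296, minus strand: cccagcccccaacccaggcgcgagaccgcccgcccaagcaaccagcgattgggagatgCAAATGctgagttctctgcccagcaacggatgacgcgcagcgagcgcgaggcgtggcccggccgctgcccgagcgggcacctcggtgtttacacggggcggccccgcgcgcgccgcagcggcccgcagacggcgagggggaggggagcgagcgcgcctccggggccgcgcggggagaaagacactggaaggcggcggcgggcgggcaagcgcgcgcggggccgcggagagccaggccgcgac
The Sox11 window held CAGCTG 210 bases and CATATG 32 bases before the RefSeq start. CATATG, an E-box form that Olig factors are known to bind, occurred in 1286 of 32851 windows of this length (3.91%), and among the SOX windows only in that of Sox11. The Sox2 window held CACATG 5 bases before its RefSeq start and that of Sox12 held CAAATG 192 bases before it. SOX genes whose libraries overlapped those of GFP with either factor had E-boxes too. The Sox4 window held CAGCTG 211 bases before its RefSeq start and the Sox8 window CACGTG 152 bases before. Each of the 6 Sox6 windows held at least 1 CANNTG, and the Sox5 window held 0. CANNTG itself occurred in 72.3% of all windows, so its presence is common, and a match describes letters only.

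Sox9 was the most abundant SOX transcript per length in all groups. Per kilobase of exon it averaged 4.58 ± 1.72 CPM with Olig2, 4.52 ± 0.422 with Olig3 and 11.9 ± 5.63 with GFP (SD, n = 3 each), above 53.5, 52.9 and 76.5% of tested genes. In the GFP group Sox2 followed at 7.66, Sox8 at 3.94, Sox11 at 3.59, Sox12 at 2.28, Sox4 at 2.11, Sox6 at 0.799 and Sox5 at 0.341 CPM per kilobase, and the libraries of every pair of neighbours in this order overlapped. Sox11 stood in the seventh place with Olig2, at 0.538 ± 0.688 CPM per kilobase with only Sox5 lower, and in the fourth with GFP. Sox4 was in the second place with either factor, at 2.67 ± 1.60 with Olig2 and 3.29 ± 0.122 with Olig3, and in the sixth with GFP at 2.11 ± 2.70 CPM per kilobase. With Olig2 the only gap without overlap lay between Sox8 and Sox6, and with Olig3 the only one lay between Sox9 and Sox4.

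**Figure D1:**
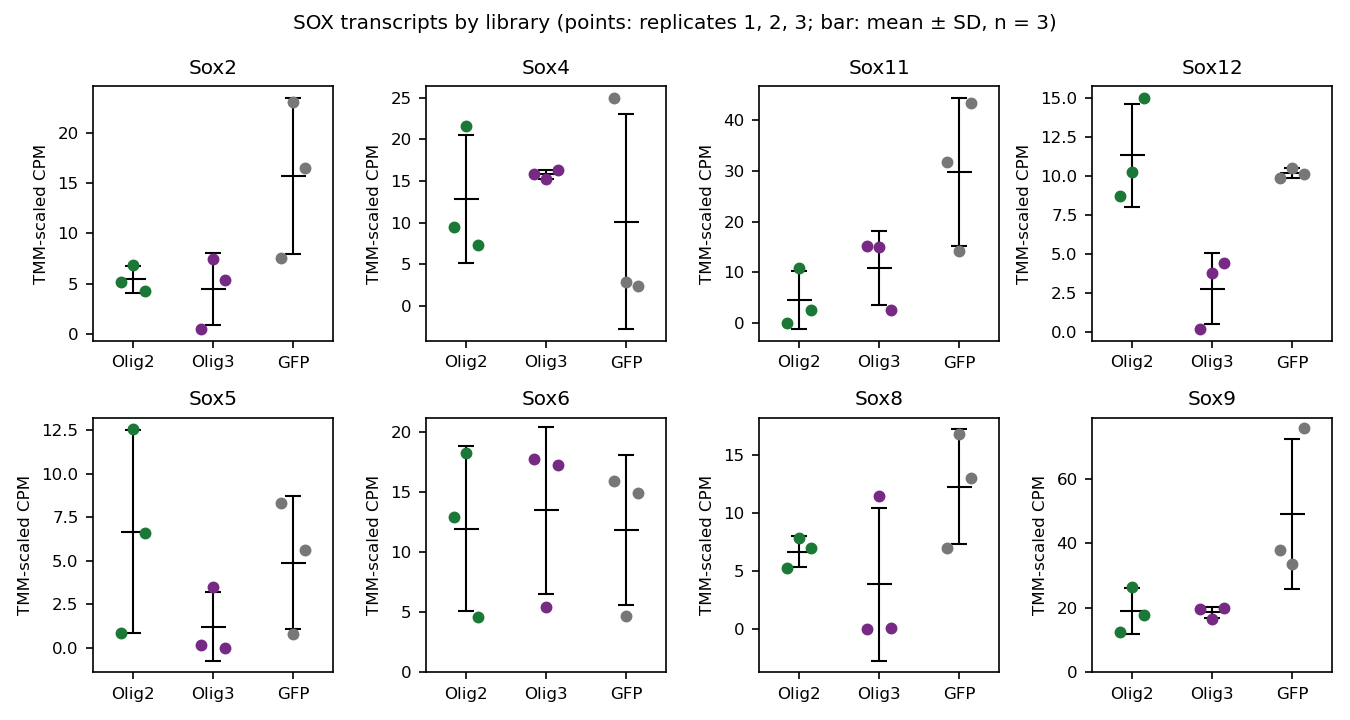
TMM-scaled CPM of the 8 SOX genes in each library (points), with the mean and SD of each group of 3 as bars, which can pass below 0; each panel has its own axis. Sox9 lay at 12.5 to 26.6 CPM with Olig2, 16.7 to 19.9 with Olig3 and 33.5 to 75.8 with GFP, while Sox6 spread over much the same range in all groups.

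Sox9 (ENSMUSG00000000567, chr11 112782224 to 112787760, mm10), the SOXE factor of Müller glia and astrocytes, had 12.5, 26.6 and 17.7 CPM in Olig2 libraries 1 to 3, against 38.0, 33.5 and 75.8 CPM in GFP libraries 1 to 3. Every Olig2 library lay below every GFP library, and GFP library 3 was the highest of all. In the Olig3 libraries Sox9 had 19.5, 16.7 and 19.9 CPM, again below every GFP library and within a narrow band. The log2 change was -1.38 (SE 0.450, edgeR unadjusted p = 0.0101, adjusted p = 0.712) for Olig2 against GFP. For Olig3 against GFP it was -1.39 (SE 0.450, edgeR unadjusted p = 0.00954, adjusted p = 0.268). Without GFP library 3 the log2 changes were -0.92 and -0.93 (edgeR unadjusted p = 0.0949 and 0.0899). Between the factors Sox9 averaged 18.7 ± 1.75 CPM with Olig3 and 18.9 ± 7.12 with Olig2, with a 95% interval of the log2 change from -0.99 to 0.96.

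Sox8 (ENSMUSG00000024176, chr17 25565892 to 25570686), the other SOXE gene, had 5.26, 7.83 and 6.97 CPM with Olig2, against 7.002, 16.8 and 13.1 CPM with GFP. Only the lowest GFP library, number 1, fell within the range of the Olig2 libraries. In the Olig3 group library 2 had 11.5 CPM (46 counts), while library 1 had 0 counts and library 3 had 1. These are the libraries with the fewest detected genes. The log2 change was -0.88 (SE 1.44) for Olig2 and -1.69 (SE 1.48) for Olig3 against GFP, with edgeR adjusted p = 1 and 0.694. The Olig3 value turned on single libraries: it was -7.06 without Olig3 library 2 (edgeR adjusted p = 0.0312) and -0.09 with only Olig3 library 2 kept (edgeR adjusted p = 1). Reads of the opposite-strand gene 2810468N07Rik, which overlaps 10.6% of the exonic length of Sox8, cannot be told apart without a stated strand setting.

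Sox2 (ENSMUSG00000074637, chr3 34650405 to 34652461), the SOXB1 factor, had 5.11, 6.88 and 4.29 CPM with Olig2, against 7.60, 23.1 and 16.5 CPM with GFP. With Olig3 it had 0.440, 7.47 and 5.40 CPM, the first value resting on 3 counts in a library with few detected genes. All 6 factor libraries lay below all 3 GFP libraries, but the gap to GFP library 1 was narrow. The log2 change was -1.54 (SE 0.982, edgeR unadjusted p = 0.145, adjusted p = 1) for Olig2. For Olig3 it was -1.83 (SE 0.993, edgeR unadjusted p = 0.0904, adjusted p = 0.496). With only Olig3 library 2 kept, the Olig3 value was -1.06. Sox2 lies inside the long noncoding Sox2ot, which shares no exonic base with it and averaged 3.50 ± 4.48 CPM with Olig2, 3.69 ± 2.95 with Olig3 and 6.25 ± 1.78 with GFP (SD, n = 3 each), with overlapping libraries.

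Sox9 and Sox2 were the only SOX genes for which all 6 factor libraries lay below all 3 GFP libraries, against 665 of 15609 tested genes (4.26%). The contrasts share the GFP libraries, so low values in both are not separate observations.

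Sox11 (ENSMUSG00000063632, chr12 27334264 to 27342574), the SOXC factor tied to axon regrowth, had 0, 10.9 and 2.500 CPM with Olig2 (0, 46 and 14 counts), against 31.7, 14.3 and 43.4 CPM with GFP (213, 113 and 326 counts). No Olig2 library reached the lowest GFP library. The group mean was 6.667 times lower with Olig2, the widest difference of any SOX gene in this contrast. The log2 change was -2.76 (SE 1.25, edgeR unadjusted p = 0.0474, adjusted p = 1). It was -2.19 without Olig2 library 1, which had no count, and -4.58 without Olig2 library 2, which had the most (edgeR unadjusted p = 0.0519 and 0.0106). With Olig3 Sox11 had 15.3, 14.9 and 2.48 CPM, and libraries 1 and 2 overlapped the lowest GFP library. The log2 change for Olig3 against GFP was -1.45 (SE 1.18, edgeR adjusted p = 0.669). Between the factors the means were 10.9 ± 7.29 CPM with Olig3 and 4.47 ± 5.72 with Olig2, a log2 change of 1.30 (95% interval -1.31 to 3.92).

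Sox4 (ENSMUSG00000076431, chr13 28948919 to 28953713), which acts beside Sox11 in newborn ganglion cells, had 9.52, 21.6 and 7.32 CPM with Olig2 and 15.9, 15.2 and 16.4 CPM with Olig3, against 25.0, 2.91 and 2.399 CPM with GFP. The Olig3 libraries were nearly level, whereas GFP library 1 was the highest of all 9 libraries and GFP libraries 2 and 3 were the lowest. The log2 change against GFP was 0.34 (SE 0.898) for Olig2 and 0.65 (SE 0.899) for Olig3, with edgeR adjusted p = 1 and 0.817. Without GFP library 1 these became 2.27 and 2.57 (edgeR unadjusted p = 0.0261 and 0.0152, adjusted p = 1 and 0.415). In GENCODE M21 the opposite-strand gene Gm26735 covers 54.6% of the exonic length of Sox4, so its reads could be counted with Sox4.

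Sox12 (ENSMUSG00000051817, chr2 152393611 to 152398063), the third SOXC gene and the weakest activator of the family, had 8.66, 10.2 and 15.0 CPM with Olig2, against 9.83, 10.49 and 10.1 CPM with GFP. The GFP libraries lay within a narrow band inside the range of the Olig2 libraries. With Olig3 Sox12 had 0.147, 3.73 and 4.38 CPM, below every library of both other groups. The log2 change was -1.88 for Olig3 against GFP (SE 1.03, edgeR unadjusted p = 0.0919, adjusted p = 0.497). It was -2.03 for Olig3 against Olig2 (SE 1.03, edgeR unadjusted p = 0.0724, adjusted p = 0.933). Library 1 held a single count of Sox12, and without it the log2 changes were -1.31 and -1.47. With only Olig3 library 2 kept, the value against GFP was -1.42.

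The SOXD pair differed in how much it varied. Sox6 (ENSMUSG00000051910, chr7 115470872 to 116038796) had 12.9, 18.3 and 4.64 CPM with Olig2 and 17.8, 5.48 and 17.2 CPM with Olig3, against 15.9, 4.68 and 14.9 CPM with GFP. Each group thus held 1 library near 5 CPM, and the means were 11.9 ± 6.87, 13.5 ± 6.94 and 11.8 ± 6.23 CPM (SD, n = 3 each). The 95% interval of the log2 change was -1.69 to 1.71 for Olig2 and -1.51 to 1.89 for Olig3 against GFP. Sox5 (ENSMUSG00000041540, chr6 143828425 to 144781977) was the scarcest per kilobase in each group and had 0.852, 12.6 and 6.61 CPM in the Olig2 group and 0.147, 3.49 and 0 CPM in the Olig3 group, against 8.34, 0.758 and 5.60 CPM in the GFP group. Its log2 change for Olig3 against GFP was -2.05 (SE 1.68, edgeR adjusted p = 0.674), and with only Olig3 library 2 kept it was -0.47. An antisense gene, Sox5os1, overlaps 9.25% of the exonic length of Sox5 and had at most 9 counts.

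**Figure D2:**
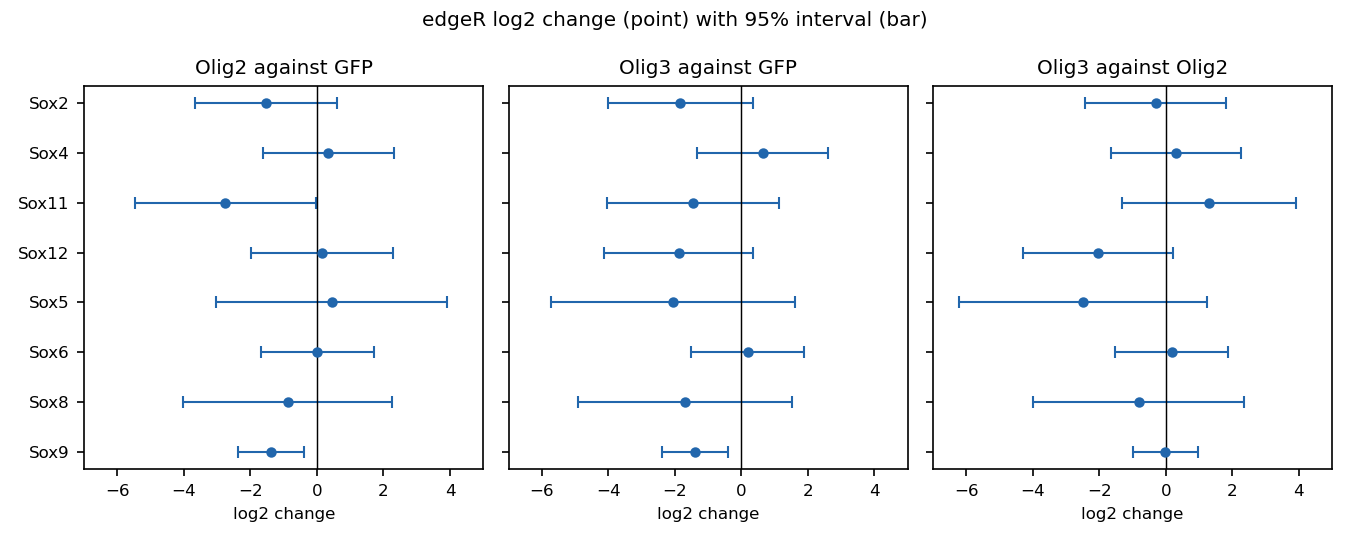
edgeR log2 change of each SOX gene (points) with its 95% interval (bars) for each factor against GFP and for Olig3 against Olig2; values below 0 are lower in the group named first. The interval of Sox9 lay below 0 in both contrasts against GFP (-2.36 to -0.40 and -2.37 to -0.41) and that of Sox11 with Olig2 ended at -0.04, before any adjustment.

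Counted together, 0 of 8 SOX genes passed in the contrast of Olig2 with GFP, where 0.0513% of tested genes did, and 0 of 8 in that of Olig3 with GFP, where 0.205% did. Between Olig3 and Olig2 the count was also 0 of 8, beside 0.0384%. DESeq2 and limma-voom likewise called 0 in each contrast. At an edgeR unadjusted p below 0.05, Sox9 and Sox11 were lower with Olig2, 2 of 8 beside 2.08% of tested genes, and 0 were higher, beside 2.61% (4.68% in either direction). With Olig3 it was Sox9 alone that was lower, 1 of 8 beside 6.37%, and 0 were higher, beside 5.76% (12.1% in either direction). Between the factors 0 were lower, beside 3.05%, and 0 higher, beside 2.07% (5.12% in either direction). In the contrasts with GFP, DESeq2 gave 2 and 3 SOX genes lower at that level and limma-voom 2 and 4, and neither gave one that was higher. The share of all tested genes at that level was not taken for DESeq2 or limma-voom, so these counts have no background beside them. For Olig3 against GFP, DESeq2 and limma-voom called 502 and 78 genes in all, where edgeR called 32.

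Libraries lay wholly below GFP for 3 of 8 with Olig2, beside 8.35% of tested genes, and wholly above for 0 of 8, beside 8.47%. With Olig3 the counts were 3 of 8 below, beside 10% of tested genes, and 0 of 8 above, beside 7.18%. Sox12 alone lay wholly lower with Olig3 than with Olig2, 1 of 8 beside 8.69%, and 0 lay wholly higher, beside 4.41%. Log2 changes were below 0 for 4 of 8 with Olig2 against GFP, beside 50% of tested genes, for 6 of 8 with Olig3 against GFP, beside 52.9%, and for 5 of 8 with Olig3 against Olig2, beside 54%. The median log2 change of the 8 was -0.43 with Olig2 and -1.57 with Olig3 against GFP, beside -0.00047 and -0.06 over all tested genes. Between Olig3 and Olig2 it was -0.15, beside -0.06.

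**Figure D3:**
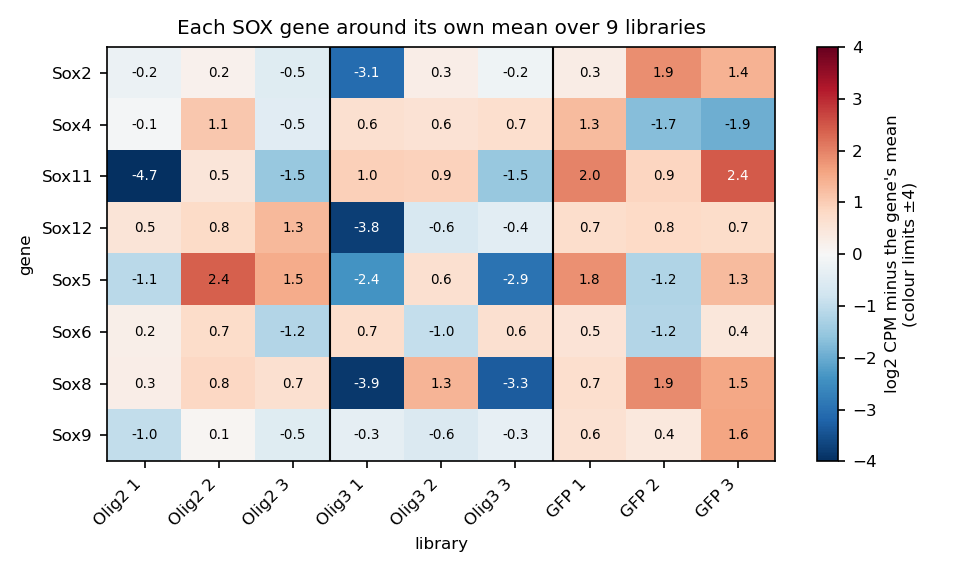
log2 CPM (prior count 2) of each SOX gene in each library minus the gene's mean over 9 libraries; red is above and blue below that mean, and colours end at 4 log2 units. The deepest values were those of Sox11 in Olig2 library 1 and of Sox8 and Sox12 in Olig3 library 1, each a library with 0 or 1 count of the gene.

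The SOX genes did not vary as one block. The likeness of patterns was measured as the root mean square difference in log2 CPM over the 9 libraries after centring each gene on its mean, so that 0 is an identical pattern. Sox2 and Sox12 were the closest pair at 0.89, followed by Sox6 and Sox9 at 0.96. The distance of Sox6 and Sox9 exceeded the spread of either gene around its mean (0.79 and 0.73). It was small because both genes varied little, and it does not show a shared pattern. Sox11 and Sox12, both SOXC genes, were the farthest at 2.69, and Sox8 and Sox4 followed at 2.66. Both distances rested largely on libraries with 0 or 1 count: over the 7 libraries with more counts of both genes, recentred, a choice made after the values were seen, they were 1.52 and 1.57. Sox2 and Sox12, the closest pair, were both at their lowest in Olig3 library 1, at -3.09 and -3.75 around their means. These values came from 3 counts and 1 count, and how far the likeness of the pair rested on that library was not tested. The median difference between a SOX gene and all other tested genes ran from 1.10 for Sox9 to 2.23 for Sox11. The genes most like Sox9 were Rad54l (0.28), Fam234a (0.30) and Crip2 (0.32), while Sox9 itself spread by 0.73 around its mean. For Sox2 they were Man2b1 (0.42), Abca1 (0.44) and Ahcy (0.45), at a spread of 1.31. For Sox4 they were Dgki (0.27), Cacna1i (0.42) and Lrtm2 (0.56), at a spread of 1.10. No gene came as near to Sox11, with Eva1c (0.94), Bag3 (0.95) and Pip5kl1 (0.99) at a spread of 2.08. Sox12 lay nearest to Rad51d (0.31), Tmem131l (0.38) and Ccdc120 (0.39), Sox8 to Mindy4 (0.36), Cmtm6 (0.42) and Necab2 (0.43), and Sox6 to Phlda1 (0.37), Lmnb2 (0.43) and B3gntl1 (0.47). These nearest genes were picked from 15609 tested genes over only 9 libraries.

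Of the 12 other SOX genes in the list, 1, Sox30, had enough counts to be tested, and 5 (Sox1, Sox10, Sox14, Sox21 and Sry) had no count in any library. Sox10, the SOXE gene of the oligodendrocyte lineage, thus had 0 counts in the libraries given Olig2 as well, and the 3 tested markers of that lineage gave 0 calls in either direction, and 0 reached an unadjusted p below 0.05 in the edgeR fit. Sox30, a factor of male germ cells, averaged 2.51 CPM with Olig2, 0.166 CPM with Olig3 and 4.98 CPM with GFP (edgeR adjusted p = 1 and 0.327 against GFP). In the Olig3 group it had 0, 2 and 0 counts.

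Known SOXC target genes gave no call either. Of 5 listed, 4 were tested and 0 passed against GFP by edgeR with either factor. At an unadjusted p below 0.05, 1 was lower with Olig2, and 1 was higher and 2 lower with Olig3. Over all tested genes 2.61% were higher and 2.08% lower at that level with Olig2, and 5.76% and 6.37% with Olig3. Tubb3, a neuronal tubulin that Sox4 and Sox11 activate, averaged 41.2 CPM with Olig2 and 32.5 CPM with Olig3, against 93.8 CPM with GFP, and its libraries did not overlap those of GFP in either case (edgeR adjusted p = 0.452 and 0.0799). Stmn1, a microtubule destabiliser, averaged 143 CPM with Olig2 and 81.2 CPM with Olig3, against 231 CPM with GFP (edgeR adjusted p = 1 and 0.200). Prox1 was the 1 target higher at an unadjusted p below 0.05 with Olig3. It averaged 91.9 CPM with Olig2 and 167 CPM with Olig3, against 76.7 CPM with GFP, with overlapping libraries (edgeR adjusted p = 0.31 for Olig3). Tubb3 is also one of the ganglion cell markers, so its level is part of their sum. The POU and PAX partners of SOX factors had 3 tested members of 7 and the cartilage targets of Sox9 and the SOXD genes 4 of 8, and in both lists edgeR gave neither a call (0) nor an unadjusted p below 0.05 (0) against GFP. Pax6, a partner of Sox2, averaged 161 CPM with Olig2, 172 with Olig3 and 166 with GFP. Of 11 transcription factors of retinal progenitors and Müller glia, 0 passed by edgeR. At an unadjusted p below 0.05 there were 0 with Olig2 and 1, Lhx2, lower with Olig3. Lhx2 averaged 9.67 CPM with Olig2 and 4.66 with Olig3, against 24.2 with GFP (edgeR adjusted p = 1 and 0.342).

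Markers of the cells that carry these SOX factors varied unevenly beside them. The 12 Müller glia markers summed to 2335 to 3930 CPM with Olig2, 657 to 2783 with Olig3 and 2330 to 6895 with GFP. GFP library 3 was the highest both for this sum and for Sox9, but other libraries differed. Olig3 library 3 had the lowest sum, 657 CPM, and the highest Sox9 of its group, 19.9 CPM. Olig2 library 2 had a larger sum (3930 CPM) than GFP libraries 1 and 2 (2967 and 2330) but less Sox9 (26.6 CPM against 38.0 and 33.5). Clu was the most abundant of the 12 in every library, so the sum depended heavily on 1 marker. It had 1210 to 2722 CPM with Olig2, 317 to 1459 with Olig3 and 1185 to 2831 with GFP. None of the 12 was at 0 throughout. By edgeR 0 of 12 passed. At an unadjusted p below 0.05, 1 was higher and 2 lower with Olig2 and 0 higher and 3 lower with Olig3. The shares over all tested genes at that level were 2.61% higher and 2.08% lower with Olig2, and 5.76% and 6.37% with Olig3. Slc1a3, the glial glutamate transporter, averaged 57.5 CPM with Olig2 and 52.5 with Olig3, against 164 with GFP (edgeR adjusted p = 0.731 and 0.259). Crym, a thyroid hormone binding protein, averaged 173 and 60.4 CPM, against 1137 with GFP (edgeR adjusted p = 0.524 and 0.0697). Glul, glutamine synthetase, averaged 240 and 190 CPM, against 102 with GFP (edgeR adjusted p = 0.742 and 0.422). Gfap, a filament protein of astrocytes and reactive Müller glia, averaged 11.04 and 9.05 CPM, against 110 with GFP (edgeR adjusted p = 0.943 and 0.329). Fabp7, the astrocyte marker with the smallest unadjusted p in both contrasts with GFP, went the other way. It had 12, 15 and 17 counts with Olig2 and 52, 12 and 0 with Olig3, against 0 in each GFP library (edgeR adjusted p = 0.719 and 0.268). The 8 astrocyte markers summed to 974 to 1015 CPM with Olig2, 664 to 1141 with Olig3 and 621 to 874 with GFP, but Aldoc, a glycolytic enzyme, made up most of that sum in every library. A split made after the values were seen left out Aldoc. The other 7 then summed to 26.1 to 44.4 CPM with Olig2, 1.61 to 58.9 with Olig3 and 129 to 211 with GFP. All 6 factor libraries lay below all 3 GFP libraries in this sum. Aldoc itself was at 929 to 989 CPM with Olig2 and 410 to 745 with GFP, so leaving it out reversed the order of these groups. How often other sums separate in this way was not taken. Most of the sum without Aldoc in GFP libraries 1 to 3 was Gfap, at 124, 78.2 and 128 CPM, so the gap rested largely on 1 marker. The 12 amacrine markers summed to 808 to 896 CPM with Olig2, 516 to 842 with Olig3 and 378 to 1071 with GFP. By edgeR 0 of 7 tested astrocyte and 0 of 11 tested amacrine markers passed. At an unadjusted p below 0.05, 2 astrocyte markers were higher and 2 lower with Olig2, and 1 higher and 2 lower with Olig3. Of the amacrine markers 1 was higher with Olig2, and 1 was higher and 1 lower with Olig3. The part of Müller glia or astrocyte content in the levels of Sox9, Sox2 and Sox8 was not tested.

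The ganglion cell markers, beside which the SOXC genes are read, did not overlap between the factor groups and GFP in their sums. By edgeR 0 of 13 tested passed, while 5 were lower and 1 higher at an unadjusted p below 0.05 with Olig2, and 6 lower and 1 higher with Olig3. The shares over all tested genes were 2.08% lower and 2.61% higher with Olig2, and 6.37% and 5.76% with Olig3. Slc17a6, the vesicular glutamate transporter of ganglion cells, averaged 15.0 CPM with Olig2 and 11.7 with Olig3, against 125 with GFP (edgeR adjusted p = 0.802 and 0.268). Isl1, a homeobox factor of ganglion cells that bipolar and cholinergic amacrine cells also express, was the 1 marker higher at that level, at 71.8 CPM with Olig2 and 70.4 with Olig3, against 33.8 with GFP, with no overlap (edgeR adjusted p = 0.472 and 0.183). Sox11 was highest in GFP library 3, with 43.4 CPM, while the ganglion cell sum was highest in GFP library 1, with 1913 CPM. The 10 bipolar cell markers summed to 1329 to 1673 CPM with Olig2 and 1387 to 1898 with Olig3, against 794 to 880 with GFP, with 1 and 3 of 10 called higher by edgeR. Over all tested genes 0.0513% and 0.205% were called in either direction. The part of ganglion cell content in the levels of Sox11 and Sox12 was not tested.

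**Figure D4:**
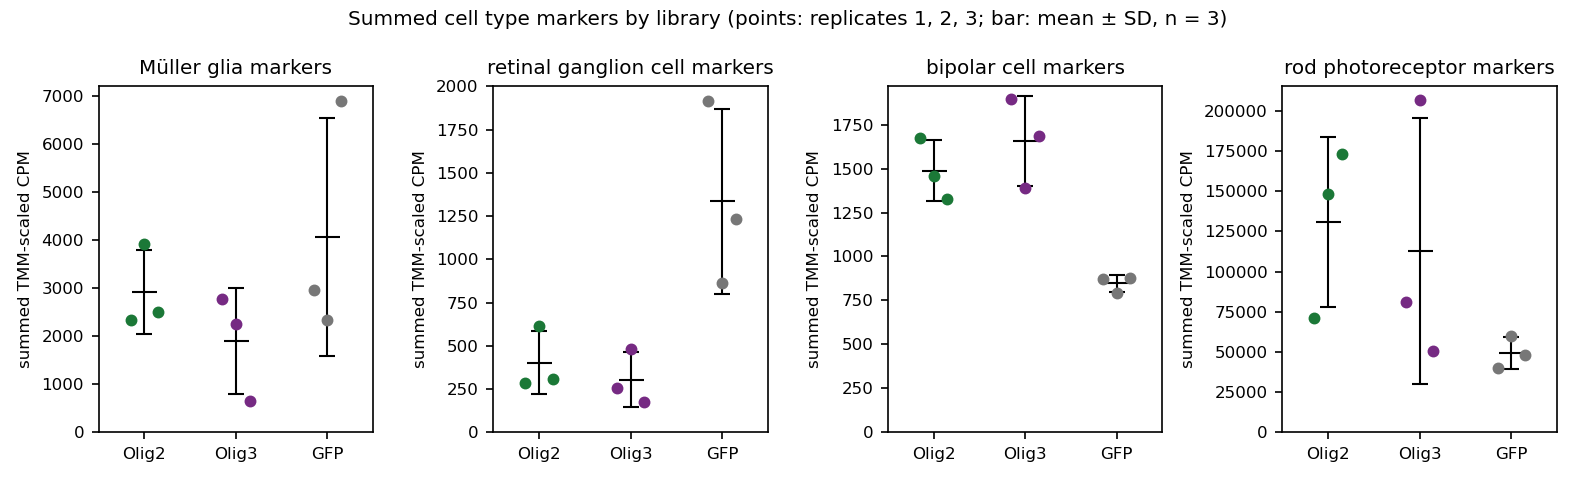
Summed TMM-scaled CPM of 4 cell type marker lists in each library (points) with mean and SD of each group of 3 (bars); each panel has its own axis. Ganglion cell markers summed to less in all 6 factor libraries than in any GFP library, bipolar markers to more, and the Müller glia sums overlapped.

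The direction of Sox9, Sox2, Sox8 and Sox11 against GFP was lower in every alternative setting in which they could be tested, with either factor, and Sox12 and Sox5 were likewise lower with Olig3. Sox9 had an unadjusted p below 0.05 in 18 of 19 alternatives in each contrast with GFP and an adjusted p of at least 0.228 with Olig2 and 0.0784 with Olig3, both from DESeq2. The exception for Sox9 was the fit without GFP library 3 (edgeR unadjusted p = 0.0949 with Olig2 and 0.0899 with Olig3). All alternatives refit the same libraries, and for Olig2 some dropped only Olig3 libraries, so such counts are not replication. Sox11 with Olig2 had an unadjusted p below 0.05 in 13 of 19. Its log2 change ranged from -10.73, where only the Olig2 library with 0 counts was kept, to -2.19. Sox8 and Sox5 with Olig3 also ranged widely, from -7.10 to -0.09 and from -5.76 to -0.47 on the log2 scale. Their upper ends came from the fit that kept Olig3 library 2 alone, in which both genes had most of their counts. Sox6 took either sign against GFP with both factors, and Sox4, Sox5 and Sox12 took either sign with Olig2.

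**Figure D5:**
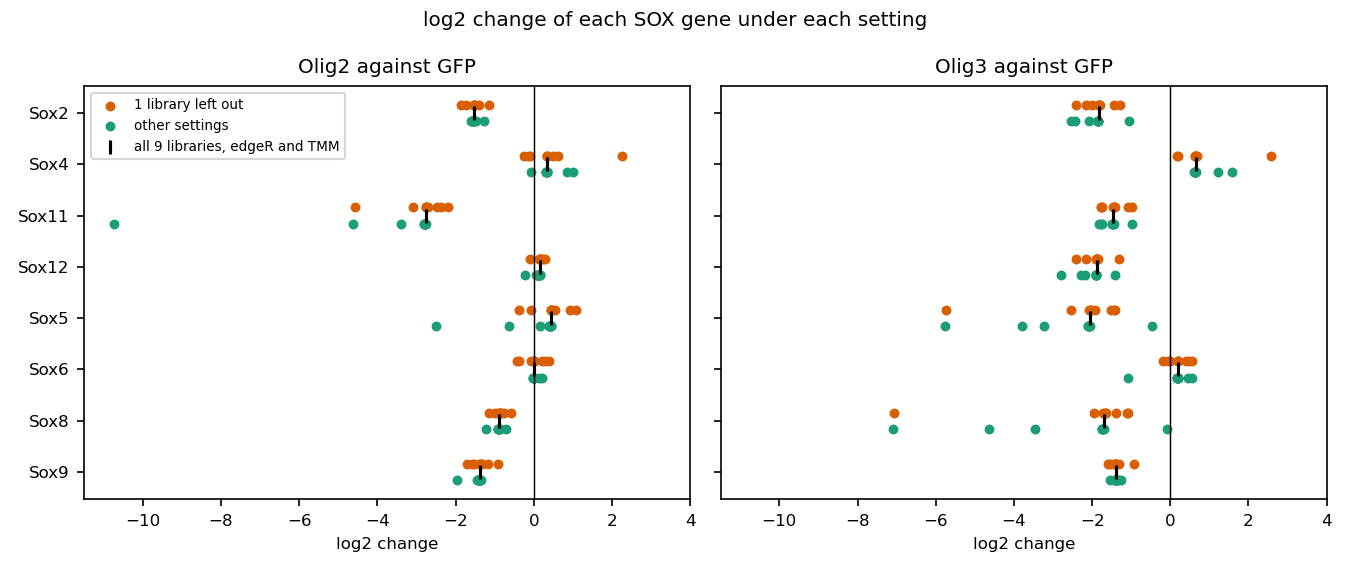
log2 change of each SOX gene against GFP with all 9 libraries under edgeR and TMM scaling (black bars), with 1 library left out (orange, 9 fits) and under the other settings (green). Sox9 stayed between -1.96 and -0.92 with Olig2 and between -1.60 and -0.93 with Olig3; the far left point of Sox11 is the fit that keeps only Olig2 library 1, which had 0 counts of it, and is no bound.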

How the data were processed

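Per the labels, poly-A RNA of hand-picked cells was amplified with the SMART-Seq HT kit over 20 cycles. The authors deposited 1 table with raw read counts for each gene in 9 libraries, without normalization. Per the submitters' processing notes, FastQC, HISAT2, HTSeq and the build mm10 were used, where neither versions nor the strand setting are given.

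The tests used edgeR 4.0.16 under R 4.3.3 (quasi-likelihood test, TMM factors, filterByExpr leaving 15609 genes, 1 model of group means over 9 libraries with 6 residual degrees of freedom, Benjamini-Hochberg adjustment over all tested genes, threshold 0.05), and the procedure was tested on simulated data. SEs are the log2 change over the root of F. Folds are ratios of mean CPM. Levels per kilobase use exon lengths of GENCODE M21 (1-based coordinates). Named genes were all 8 SOX genes and the 3 nearest patterns per SOX gene averaging at least 5 CPM. Of each other list, up to 2 genes with the smallest unadjusted p were named. Gfap, Glul, Slc17a6, Pax6, Fabp7, Prox1 and Clu were added after their values were seen. The members and lists were chosen with earlier results of these data known. Alternatives were RLE and TMMwsp factors, no filter, 10 CPM in 3 libraries, DESeq2 1.42.0, limma-voom (limma 3.58.1), pairwise fits, a replicate block, leaving out each library, and leaving out Olig3 libraries 1 and 3 or the 3 libraries richest in Malat1. No 2 libraries of a group agreed within sampling noise (chi-square over its degrees of freedom at least 33.1).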

Additional observations from a re-analysis of the deposited data

How the results depend on the processing

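With 3 libraries a group, the log2 intervals of the SOX genes are wide and none was called with all libraries. The count of SOX genes past the threshold stayed at 0 in every setting except without Olig3 replicate 2, so that it ran from 0 to 1 for Olig3 against GFP, the 1 being Sox8 (-7.06). The count over all genes was 8 for Olig2 against GFP, and 176 with no filter, 90 with DESeq2, 23 in the pairwise fit, 41 without Olig3 libraries 1 and 3, 5 without the 3 Malat1-rich libraries and 0 to 24 with 1 library left out (0 without GFP library 1, GFP library 3 or Olig2 library 1, 24 without Olig3 library 3). For Olig3 against GFP it was 32, and 556 with no filter, 502 with DESeq2, 78 with limma-voom, 0 in the pairwise fit, 0 with the replicate block, 0 without Olig3 libraries 1 and 3, 20 without the Malat1-rich libraries and 0 to 505 with 1 library left out (505 without Olig3 library 2, 2 without Olig3 library 3 and 0 without each other library). For Olig3 against Olig2 it was 6, and 140 with no filter, 82 with DESeq2, 1 with limma-voom, 2 in the pairwise fit, 0 without Olig3 libraries 1 and 3 and 2 to 160 with 1 library left out (160 without Olig3 library 2, 2 without Olig2 library 1 or Olig3 library 3). The cause was not tested. In both fits that leave out several libraries the lone library of a group is assumed to vary like the others.

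Some log2 changes took the other sign. For Olig2 against GFP, Sox6 (0.01) was -0.021 with RLE factors, -0.016 with no filter and -0.022 with DESeq2, and -0.43 to 0.40 with 1 library left out. Sox5 (0.44) was -0.63 with the replicate block, -2.49 without the Malat1-rich libraries and -0.39 to 1.07 with 1 left out. Sox4 (0.34) was -0.078 and Sox12 (0.15) -0.22 without the Malat1-rich libraries, and -0.26 to 2.27 and -0.10 to 0.28 with 1 left out. For Olig3 against GFP, Sox6 (0.19) was -1.09 without Olig3 libraries 1 and 3 and -0.19 to 0.56 with 1 left out. For Olig3 against Olig2, Sox9 (-0.01) was 0.0086 with RLE factors, 0.014 with no filter, 0.011 with DESeq2, 0.012 with the replicate block, 0.18 with limma-voom, 0.64 without the Malat1-rich libraries and -0.22 to 0.31 with 1 left out. There Sox6 (0.18) was -0.017 with the replicate block, -1.11 without Olig3 libraries 1 and 3 and -0.21 to 0.62 with 1 left out, Sox2 (-0.30) was 0.47 without Olig3 libraries 1 and 3 and -0.89 to 0.24 with 1 left out, and Sox8 (-0.81) was 0.78 without Olig3 libraries 1 and 3.

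Replicate numbers are shared between groups, and whether they mark pairs is not stated. Deviations of same-numbered libraries from their group means correlated by -0.0634 to 0.113 across genes. For differently numbered libraries of 2 groups the range was -0.115 to 0.0747. These ranges do not settle whether libraries were paired. With the replicate block, Sox9 was at -1.34 with Olig2 and -1.33 with Olig3, and no SOX gene was called. Sox2, Sox5 and Sox8 were not tested at 10 CPM in 3 libraries.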
